A study of Mus musculus with 15 samples.

Results

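Collagens are secreted proteins whose chains wind round each other into a helical trimer, and each chain is the product of a gene of its own. The collagen chain genes studied here are the 41 rows, of 18073 in the deposited expression table, whose gene name is Col, a type number, the letter a and a chain number. The rule for a member is its name, and no measured value enters it. RNA was sequenced from aortic valve leaflets, 3 per mouse, of 15 C57BL/6 mice aged 2 months. The 4 long-telomere wild type mice had both copies of Notch1 and intact Terc, which encodes the RNA component of telomerase. The 4 long-telomere heterozygous mice lacked 1 copy of Notch1 and had intact Terc. A further 3 mice labelled Notch1 wild type and 4 labelled heterozygous were generation 2 Terc nulls, the groups with short telomeres. The labels name no Cre driver or other tissue restriction for these alleles and do not describe the Notch1 mutation. Cells were freed from the leaflets with collagenase (20 minutes, 37 °C) ahead of RNA extraction.

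In the aortic valve, collagen I and III fibrils fill the outflow layer, the fibrosa, and carry the load when the leaflets close. Valve interstitial cells make these fibrils, and collagen V starts them and limits their width. Collagens XII and XIV bind to the fibril surface, collagen VI forms beaded filaments around cells, and collagen IV forms the network of basement membranes under endothelium and around muscle cells. Collagens XV and XVIII sit at the basement membrane with heparan or chondroitin sulfate chains, and collagen VIII forms a hexagonal network made by endothelial and vascular wall cells. The title of the series sets losing 1 copy of Notch1, a receptor needed for valve development, against telomere length as the question.

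The table gives 1 FPKM (fragments relative to the length of the transcript and the size of the library) for each gene in each group, so the libraries of a group were combined before deposit. The spread between mice and the depth per library are unknown, whether 2 groups overlap cannot be seen, no value below has an error, and no difference has a replicate check. Where 4 values of a gene follow each other, they stand for long-telomere wild type, long-telomere heterozygous, and the short-telomere groups labelled wild type and labelled heterozygous, in that order. Log2 folds are differences of log2(FPKM + 1), which understates the folds of genes with low values. Counts of chains at least 2-fold higher or lower are on this scale as well, so a chain with low values can pass 2-fold in FPKM without being counted. Terc was listed at 0 wherever telomeres were short by label. Notch1 stood at 39.1, 25.1, 16.6 and 23.3 FPKM, so with short telomeres it was lower in the group labelled wild type than in the group labelled heterozygous, against the labels, and each direction given below between these groups rests on the labels. Mitochondrially encoded genes took 14.4, 10.01, 32.5 and 35.0% of all FPKM, and the whole table's median log2 fold lay between -0.24 and 0.09 in the 5 comparisons. The markers of valve interstitial cells and fibroblasts were high in every group, with Dcn, the proteoglycan decorin, at 2692, 2255, 4698 and 3188 FPKM. In such mixed tissue, fewer cells of a type and less RNA per cell cannot be told apart.

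Promoter stretches of 6 chains are shown because their levels set the pattern below: the paired basement membrane chains, the chains of the main fibrils, and the chains with high levels in the group labelled for both changes (Col8a1) or low levels in both heterozygous groups (Col27a1). Each runs 5′ to 3′ in the direction of transcription, from 250 bases before to 30 bases after a RefSeq start on build GRCm38.p6. RefSeq promoter windows were found for 33 of the 41 chains, 36 windows in all, and not for Col1a1, Col2a1, Col4a3, Col5a2, Col9a3, Col12a1, Col14a1 and Col22a1. Col4a1 (chr8:11312797-11313076, minus strand) and Col4a2 (chr8:11312555-11312834, plus strand) are transcribed away from each other, and the capitals mark the 38 bases that both stretches hold, on opposite strands.
Col4a1: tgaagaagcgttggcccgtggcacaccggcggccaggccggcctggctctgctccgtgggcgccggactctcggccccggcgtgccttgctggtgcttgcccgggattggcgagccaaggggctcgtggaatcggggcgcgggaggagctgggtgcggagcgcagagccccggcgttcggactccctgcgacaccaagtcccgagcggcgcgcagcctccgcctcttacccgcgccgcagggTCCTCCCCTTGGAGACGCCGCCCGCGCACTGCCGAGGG
Col4a2: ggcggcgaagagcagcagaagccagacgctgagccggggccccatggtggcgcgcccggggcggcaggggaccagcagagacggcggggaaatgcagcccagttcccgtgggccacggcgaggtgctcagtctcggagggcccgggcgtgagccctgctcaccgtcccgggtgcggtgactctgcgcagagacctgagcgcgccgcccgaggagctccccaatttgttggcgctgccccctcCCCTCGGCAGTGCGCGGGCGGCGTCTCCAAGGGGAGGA
The library method does not keep the strand, so reads from where genes overlap cannot be told apart. In RefSeq, Col4a3 and Col4a4 overlap as well. In the other 4 stretches, Col1a2 (chr6:4505368-4505647, plus strand), Col3a1 (chr1:45311288-45311567, plus strand), Col8a1 (chr16:57754708-57754987, minus strand) and Col27a1 (chr4:63215162-63215441, plus strand), the capitals mark motifs on either strand.
Col1a2: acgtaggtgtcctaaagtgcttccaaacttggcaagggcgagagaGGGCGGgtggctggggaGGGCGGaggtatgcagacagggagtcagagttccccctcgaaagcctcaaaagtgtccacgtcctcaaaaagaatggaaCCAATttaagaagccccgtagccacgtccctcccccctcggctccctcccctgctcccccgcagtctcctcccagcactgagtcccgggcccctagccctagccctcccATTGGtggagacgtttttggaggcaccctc
Col3a1: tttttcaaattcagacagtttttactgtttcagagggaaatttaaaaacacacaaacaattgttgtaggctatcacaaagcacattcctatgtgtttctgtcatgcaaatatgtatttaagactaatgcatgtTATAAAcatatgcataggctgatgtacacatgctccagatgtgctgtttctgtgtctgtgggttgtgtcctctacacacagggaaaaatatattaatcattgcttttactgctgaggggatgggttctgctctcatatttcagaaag
Col8a1: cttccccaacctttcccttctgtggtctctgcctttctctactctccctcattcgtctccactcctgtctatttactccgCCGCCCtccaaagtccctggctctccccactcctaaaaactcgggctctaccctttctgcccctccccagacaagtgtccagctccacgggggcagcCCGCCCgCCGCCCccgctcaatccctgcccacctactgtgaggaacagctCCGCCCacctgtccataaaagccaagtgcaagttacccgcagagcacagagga
Col27a1: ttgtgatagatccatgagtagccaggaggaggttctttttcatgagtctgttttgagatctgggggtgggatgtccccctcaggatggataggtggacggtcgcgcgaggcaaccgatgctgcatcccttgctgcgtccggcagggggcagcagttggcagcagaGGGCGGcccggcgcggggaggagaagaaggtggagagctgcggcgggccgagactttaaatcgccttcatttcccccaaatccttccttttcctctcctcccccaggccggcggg
The motifs searched, on both strands of the full windows of 300 bases, were TATAAA (the TATA box), CCAAT (the CCAAT box), GGGCGG (the GC box bound by Sp1) and TGGGAA, the core of the site of RBPJ, the DNA-binding partner of Notch. GGGCGG was in 21 of the 36 collagen windows (58.3%) and in 35.7% of all 32851 windows of this length. TATAAA was in 13.9% of the collagen windows and 13.6% of all, and CCAAT in 33.3% and 37.4%. TGGGAA was in 30.6% of the collagen windows and 25.6% of all, and its letters are in none of the 6 stretches shown.

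The collagen genes were highest as a group in long-telomere wild type valves, and their make-up differed between groups. The summed FPKM of the 41 chains was 812, 487, 399.8 and 551 FPKM. Long-telomere wild type was the highest of the 4 groups for 27 of the 41 chains, a place it held for 28.5% of all genes. The short-telomere group labelled wild type was the lowest for 22 chains, and without a tie for 38.5% of all genes. At least 1 group reached 10 FPKM for 17 chains and 50 FPKM for 9 chains, 32 chains reached 1 FPKM, and Col1a1 alone reached 100 FPKM. Values are given below for these 17 chains and for Col22a1, which differed by more than 4-fold on the log2(FPKM + 1) scale in 1 comparison. The other 23 chains are given by class, with all 4 values for 6 of them that were picked after their values were seen (Col2a1, Col4a3, Col4a4, Col6a6, Col8a2 and Col10a1). The plot of levels by group shows the 18 chains.

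**Figure D1:**
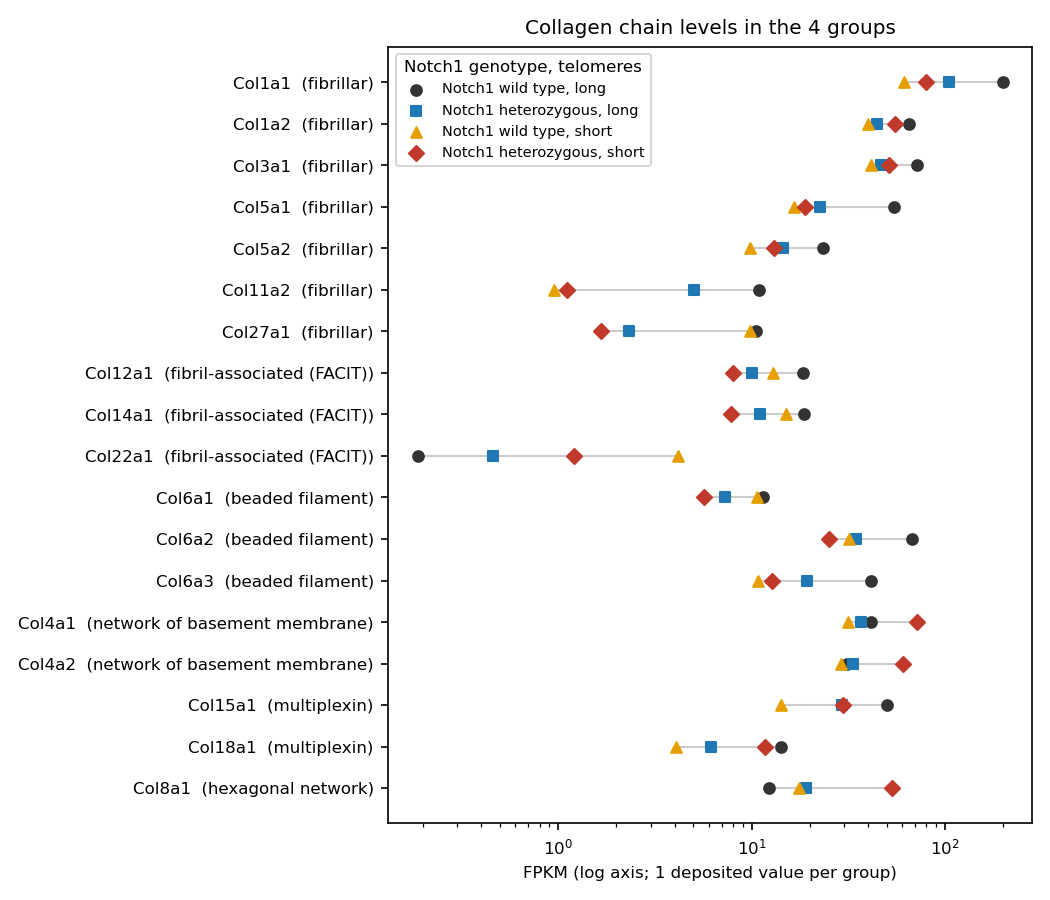
FPKM of the 18 collagen chains at 10 FPKM or more in a group or with a log2 fold of 2 or more in size, on a log axis, with 1 symbol per group and a grey line from the lowest to the highest group. Groups are as labelled; long-telomere wild type is the highest for 14 chains, whereas Col4a1, Col4a2 and Col8a1 are highest in the short-telomere heterozygous group.

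Chains of the main fibrils were among the most abundant, and Col1a1 was the highest of the 41 in every group. Col1a1, the alpha 1 chain of collagen I, stood at 199, 105, 61.3 and 79.5 FPKM. Its partner Col1a2 stood at 64.9, 44.5, 39.8 and 55.2 FPKM, and Col3a1, the only chain of collagen III, at 71.3, 46.4, 41.3 and 51.5 FPKM. In the deposited FPKM, all 3 were highest in long-telomere wild type and lowest in the short-telomere group labelled wild type. Of the 3, Col1a1 covered the widest range. When the groups were scaled to the same median or upper quartile, Col1a2 and Col3a1 were lowest in long-telomere heterozygous, and Col1a1 kept its lowest group. Col5a1 and Col5a2, the chains of the collagen V that starts fibrils, stood at 54.2, 22.6, 16.6 and 18.8 FPKM and at 23.3, 14.4, 9.77 and 13.0 FPKM. Their highest and lowest groups were those of Col1a1. Col11a2, a chain of the cartilage fibril collagen XI, was at 10.9, 5.05, 0.948 and 1.11 FPKM, about 1 FPKM in both short-telomere groups. Col27a1, a fibrillar chain of cartilage, had another order, with 10.6, 2.33, 9.86 and 1.67 FPKM. It was high in both groups with 2 copies of Notch1 by label and low in both heterozygous groups, whatever the telomere length. The remaining fibrillar chains were low, between 0 and 3.66 FPKM, with Col24a1 listed at 0 in the short-telomere group labelled wild type. Among them Col2a1, the main cartilage collagen, was at 0.131, 0.104, 0.0170 and 1.64 FPKM.

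The fibril-associated chains Col12a1 and Col14a1, which coat collagen I fibrils, stood at 18.5, 10.1, 12.9 and 8.03 FPKM and at 18.7, 11.1, 15.02 and 7.82 FPKM. Both were lower in each heterozygous group than in the wild type group of the same telomere length. Col22a1, a chain known from muscle-tendon junctions, was at 0.188, 0.460, 4.18 and 1.21 FPKM, highest in the short-telomere group labelled wild type. A second row of the table, whose identifier now belongs to Col22a1, was at 0.703, 0.310, 0 and 0.0286 FPKM, an opposite order of groups, so the level of this gene is uncertain. The other 6 chains of the class lay between 0.0180 and 7.74 FPKM.

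Collagen VI needs 3 different chains per filament. Col6a1 stood at 11.4, 7.32, 10.7 and 5.69 FPKM and Col6a2 at 67.3, 34.7, 31.7 and 25.2 FPKM. For Col6a3 the values were 41.6, 19.4, 10.7 and 12.8 FPKM. Each was highest in long-telomere wild type, but the lowest group was the short-telomere one labelled heterozygous for Col6a1 and Col6a2 and the one labelled wild type for Col6a3. Col6a6 was at 7.70, 2.04, 1.94 and 2.05 FPKM, with the other 3 groups near each other and below long-telomere wild type.

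Among the basement membrane chains, Col4a1 and Col4a2 did not share this order. Col4a1 and Col4a2, which form the common collagen IV trimer, stood at 41.3, 36.6, 31.7 and 72.0 FPKM and at 31.2, 33.5, 28.9 and 60.7 FPKM. The short-telomere group labelled heterozygous was the highest for both, and the other 3 groups lay within 31.7 to 41.3 FPKM for Col4a1 and 28.9 to 33.5 FPKM for Col4a2. The minor chains Col4a3 to Col4a6, which replace them in specialised basement membranes, lay between 0.888 and 9.80 FPKM, and Col4a3, Col4a4 and Col4a6 were highest in long-telomere wild type. Of these, Col4a3 was at 8.10, 3.73, 2.50 and 3.66 FPKM and Col4a4 at 5.85, 2.39, 2.08 and 0.888 FPKM. The multiplexins Col15a1 and Col18a1, the second being the source of the antiangiogenic fragment endostatin, stood at 50.4, 29.5, 14.2 and 29.6 FPKM and at 14.2, 6.16, 4.07 and 11.7 FPKM. Both were lowest in the short-telomere group labelled wild type.

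Col8a1, the main chain of the hexagonal collagen VIII, stood at 12.3, 19.2, 17.6 and 53.4 FPKM. It was lowest in long-telomere wild type, intermediate and similar in both groups with 1 change, and highest in the group labelled for both. Its partner Col8a2 was at 2.998, 1.89, 1.86 and 1.80 FPKM, and Col10a1, the chain of hypertrophic cartilage, at 1.29, 4.12, 2.28 and 3.98 FPKM, higher in both heterozygous groups. The transmembrane chains reached 7.65 FPKM, the level of Col23a1 in long-telomere wild type. Col7a1 of anchoring fibrils and Col28a1 reached 0.567 FPKM at most, and Col28a1 was listed at 0 in the short-telomere group labelled wild type.

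As a share of all collagen FPKM, which does not depend on how groups are scaled, the fibrillar class made up 53.9, 49.9, 45.4 and 41.3%. The basement membrane chains made up 12.9, 17.4, 20.1 and 26.7% and the hexagonal chains 2.05, 5.17, 5.45 and 10.7%. The fibrillar share was therefore highest, and both network shares lowest, in long-telomere wild type, and the group labelled for both changes was at the other end for all 3 classes. Col1a1 alone gave 24.5, 21.6, 15.3 and 14.4% and Col4a1 with Col4a2 8.92, 14.4, 15.1 and 24.1%. The beaded filament chains had their lowest share, 8.30%, in the group labelled for both changes, against 13.0 to 15.8% in the other groups. The multiplexins were lowest, at 4.57%, in the short-telomere group labelled wild type, against 7.31 to 7.95% in the others. The stacked plot by class shows these shares.

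**Figure D2:**
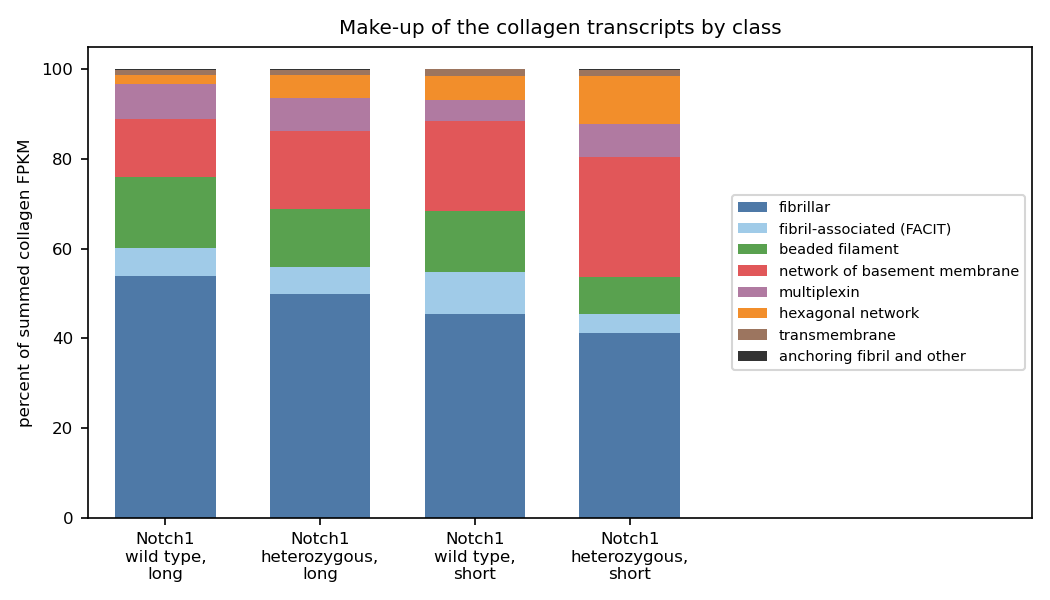
Share of each collagen class in the summed collagen FPKM (y axis, percent) for the 4 groups as labelled (x axis). The fibrillar block shrinks from 53.9% in long-telomere wild type to 41.3% in the short-telomere heterozygous group, and the blocks of basement membrane and hexagonal chains are larger there, at 26.7% and 10.7%.

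Ratios between chains, of 1 collagen or of different ones, kept a near constant proportion for some pairs and not for others. Col4a1 over Col4a2 was 1.32, 1.09, 1.10 and 1.19, and Col3a1 over Col1a2 1.10, 1.04, 1.04 and 0.934. Col1a1 over Col1a2, whose trimer holds them at 2 to 1, was 3.07, 2.37, 1.54 and 1.44, lower in both short-telomere groups than in both long-telomere groups. Col5a1 over Col5a2 was 2.32, 1.57, 1.70 and 1.45, and Col6a2 over Col6a1 5.88, 4.75, 2.97 and 4.44, both highest in long-telomere wild type. Col8a1 over Col8a2 was 4.12, 10.1, 9.48 and 29.6, lowest there. Col4a1 over Col1a1, which sets the basement membrane against the main fibril, was 0.208, 0.347, 0.516 and 0.906. The length and base composition of the transcripts differ between chains, and their part in these ratios was not tested.

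**Figure D3:**
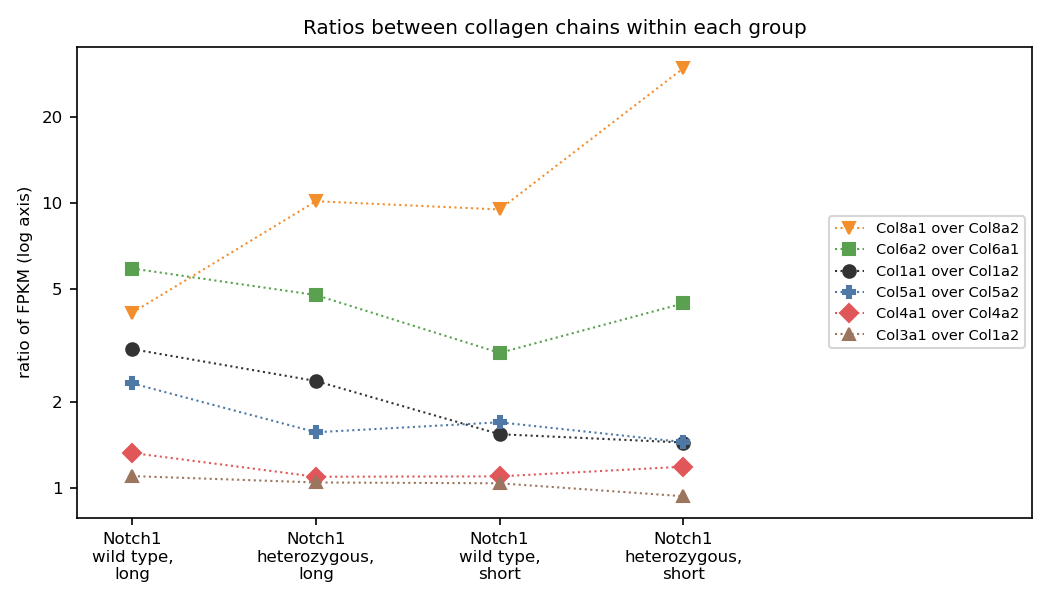
Ratio of FPKM between pairs of collagen chains (y axis, log) in the 4 groups as labelled (x axis); the dotted lines join the values of 1 pair and are no time course. Col4a1 over Col4a2 and Col3a1 over Col1a2 stay close to 1, Col1a1 over Col1a2 is lower in the short-telomere groups (1.54 and 1.44), and Col8a1 over Col8a2 goes up to 29.6.

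With long telomeres, collagen chains were lower in Notch1 heterozygous than in wild type valves. Of the 41 chains, 34 were lower and the median log2 fold was -0.57, where 43.6% of all genes were lower and their median was 0.09. All 11 fibrillar chains and all 4 beaded filament chains were lower, as were 5 of 6 basement membrane chains, 8 of 9 fibril-associated chains and both multiplexins. Examples were Col27a1 with a log2 fold of -1.80, Col5a1 with -1.23, Col18a1 with -1.09, Col6a3 with -1.06, Col11a2 with -0.97 and Col1a1 with -0.91. Col8a1 was higher, with a log2 fold of 0.59, and Col4a2 differed little, with 0.10. No call in the authors' deposited table fell on a collagen chain in this comparison (0 of 41), where 0.415% of all genes were called. On the log2(FPKM + 1) scale, 7 chains were at least 2-fold lower (7.53% of all genes) and 1 chain, Col10a1, was at least 2-fold higher (10.9% of all genes). Smooth muscle markers were lower in the same comparison in 8 of 8 genes, of which 5 were called, with sums of 1199 and 207 FPKM. Platelet markers were lower in 5 of 5, all called, with sums of 3064 and 121 FPKM. Mesothelial markers were lower in 6 of 6 and erythroid markers in 4 of 4. T cell markers were higher in 6 of 6, of which 5 were called, with sums of 96.3 and 927.5 FPKM. Cardiomyocyte markers were higher in 8 of 8 and neutrophil markers in 4 of 4. The part of these markers in the collagen values was not tested. The markers of valve interstitial cells and fibroblasts had sums of 5480 and 4778 FPKM, with 7 of 8 genes lower and a median log2 fold of -0.31.

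With short telomeres, more chains were higher than lower in the group labelled heterozygous. Of the 41 chains, 27 were higher and 14 lower, and the median log2 fold was 0.17 beside 0.06 for all genes, of which 42.6% were lower. Of 11 fibrillar chains 10 were higher, with small folds for the main fibrils: 0.37 for Col1a1, 0.46 for Col1a2 and 0.31 for Col3a1. Larger folds belonged to Col8a1 (1.55), Col18a1 (1.32), Col4a1 (1.16), Col4a2 (1.05) and Col15a1 (1.01). Col27a1, the exception among the fibrillar chains, was lower with a log2 fold of -2.02, and Col14a1, Col6a1 and Col12a1 were lower with -0.86, -0.80 and -0.62. Among the calls of the authors' deposited table were 0 of the 41 chains (0.476% of all genes). On the log2(FPKM + 1) scale, 6 chains were at least 2-fold higher (12.5% of all genes) and 2, Col22a1 and Col27a1, at least 2-fold lower (10.8% of all genes). Smooth muscle markers were lower here too, in 8 of 8 genes with sums of 583 and 407 FPKM. Neutrophil markers were lower in 4 of 4 genes, of which 3 were called, with sums of 1718 and 155 FPKM. Platelet markers were lower in 5 of 5 (4 called), T cell markers in 6 of 6 (3 called) and erythroid markers in 4 of 4 (2 called). Chondrocyte-associated markers had sums of 189 and 321 FPKM, with 4 of 5 measured genes higher, and macrophage markers were higher in 5 of 6. The part of these markers in the collagen values was not tested.

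The Notch1 comparisons with long and with short telomeres share no group. Lower in both were 11 of the 41 chains (20.0% of all genes), among them Col27a1, Col12a1, Col14a1, Col6a1 and Col6a2. Lower with long telomeres and not with short were 23 chains (23.5% of all genes), including Col1a1, Col1a2, Col3a1, Col5a1, Col5a2, Col6a3, Col15a1 and Col18a1. Higher in both were 4 chains (31.3% of all genes), Col4a2, Col8a1, Col10a1 and Col17a1. Whether the 2 settings differ could not be tested.

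In Notch1 wild type valves, the collagen chains were lower with short than with long telomeres, by label. Of the 41 chains, 35 were lower, with a median log2 fold of -0.49, where 61.1% of all genes were lower and their median was -0.23. All 11 fibrillar chains were again lower, led by Col11a2 (-2.61), Col1a1 (-1.68) and Col5a1 (-1.65). Col6a3 (-1.86), Col15a1 (-1.76) and Col18a1 (-1.58) were lower by like amounts. The small folds of Col4a2 (-0.11), Col6a1 (-0.09) and Col27a1 (-0.09) turned to between 0.01 and 0.07 when the groups were scaled to the same median or upper quartile. Col22a1 was higher, with 2.13, and Col8a1 with 0.48. Calls of the authors' deposited table covered 0 of the 41 chains (0.686% of all genes). At least 2-fold lower on the log2(FPKM + 1) scale were 13 chains (20.9% of all genes), and 1 chain, Col22a1, was at least 2-fold higher (8.9% of all genes). The smallest fold among the called genes was 4.54, and Col11a2 was 11.5-fold lower in FPKM without a call, as were most genes past that fold with at least 10 FPKM in a group, of which 11.3% were called. Neutrophil markers were higher in this comparison in 4 of 4 genes, all called, with sums of 11.5 and 1718 FPKM. Erythroid markers were higher in 4 of 4 (2 called) and adipocyte markers in 5 of 5. Smooth muscle markers were lower in 8 of 8, with sums of 1199 and 583 FPKM. Chondrocyte-associated markers were lower in 5 of 5 measured genes (1 called) and platelet markers in 5 of 5. The part of these markers in the collagen values was not tested.

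The transcripts of collagen chains are rich in GC, with a median of 55.9% over 40 chains and 50.2% over 14805 genes, and across all these genes a higher GC content went with a lower fold in this comparison (Spearman's rho -0.25, a description over genes of the same libraries). Relative to genes of like GC content, the collagen median was -0.12, beside -0.26 relative to the median of all genes. On the first measure, 8 of 40 chains were at least 2-fold lower. The share of all genes past 2-fold is not given for this measure. Col4a1 and Col4a2 then stood at 0.13 and 0.61, above genes of like GC content, whereas Col1a1, Col5a1, Col6a3 and Col11a2 stood below them at -1.02, -1.15, -1.46 and -1.89. For the Notch1 comparison with long telomeres the rho across genes was -0.24 and the collagen median relative to like genes -0.53.

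In Notch1 heterozygous valves, short and long telomeres gave a mixed picture. Of the 41 chains, 23 were lower and 18 higher, and the median log2 fold was -0.04 beside -0.24 for all genes, of which 64.9% were lower; it turned to 0.13 and 0.09 when the groups were scaled to the same median and upper quartile. Col8a1 (1.43), Col4a1 (0.96), Col4a2 (0.84) and Col18a1 (0.83) were higher with short telomeres. Col11a2 (-1.52), Col6a3 (-0.57), Col14a1 (-0.45) and Col1a1 (-0.40) were lower, and the folds of Col5a1 (-0.25), Col5a2 (-0.14) and Col15a1 (0.01) changed sign with the scaling. Calls of the authors' deposited table covered 0 of the 41 chains (0.432% of all genes). On the log2(FPKM + 1) scale, 1 chain, Col11a2, was at least 2-fold lower (16.8% of all genes) and 2, Col8a1 and Col2a1, at least 2-fold higher (4.71% of all genes). T cell markers were lower in 6 of 6 genes, all called, with sums of 927.5 and 15.9 FPKM, and melanocyte markers were lower in 4 of 4. Platelet markers were higher in 5 of 5, of which 2 were called, and erythroid and neutrophil markers in 4 of 4 each. Smooth muscle markers were higher in 6 of 8 genes, with sums of 207 and 407 FPKM. Endothelial markers were higher in 8 of 8, with sums of 243 and 476 FPKM. The part of these markers in the collagen values was not tested.

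Between the telomere comparisons, which share no group either, 20 chains were lower in both (43.1% of all genes), among them Col1a1, Col5a1, Col6a3 and Col11a2. Lower in Notch1 wild type and not in heterozygous valves were 15 chains (18.03% of all genes), including Col1a2, Col3a1, Col4a1, Col15a1 and Col18a1. Higher in both were 3 chains, Col4a5, Col8a1 and Col22a1 (16.1% of all genes). Whether the telomere folds differ by Notch1 genotype could not be tested.

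Valves labelled for both changes differed from valves with neither in opposite directions for the main fibril chains and for Col4a1, Col4a2 and Col8a1. Of the 41 chains, 32 were lower, with a median log2 fold of -0.51 beside -0.16 for all genes, of which 58.2% were lower. Col11a2 (-2.49), Col27a1 (-2.11), Col6a3 (-1.63), Col5a1 (-1.48), Col6a2 (-1.38) and Col1a1 (-1.31) had the lowest log2 folds of the chains at 10 FPKM or more. Col8a1 (2.03), Col4a2 (0.94) and Col4a1 (0.79) were higher. Relative to genes of like GC content the collagen median was -0.21, beside -0.36 relative to the median of all genes. On the first measure Col1a2 and Col18a1 stood at 0.11 and 0.37. Their log2 folds of -0.23 and -0.26 are not relative to other genes, whose median was -0.16. Calls of the authors' deposited table covered 0 of the 41 chains (0.526% of all genes). At least 2-fold lower on the log2(FPKM + 1) scale were 12 chains (17.2% of all genes), and 3, Col8a1, Col10a1 and Col2a1, were at least 2-fold higher (7.48% of all genes). In FPKM, Col11a2 was 9.82-fold lower, Col27a1 6.33-fold lower and Col8a1 4.33-fold higher without a call, where the smallest called fold was 4.25 and 12.8% of all genes past it with at least 10 FPKM in a group were called. This comparison shares its reference, long-telomere wild type, with those of each change alone, so a high value in that group enters all 3.

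**Figure D4:**
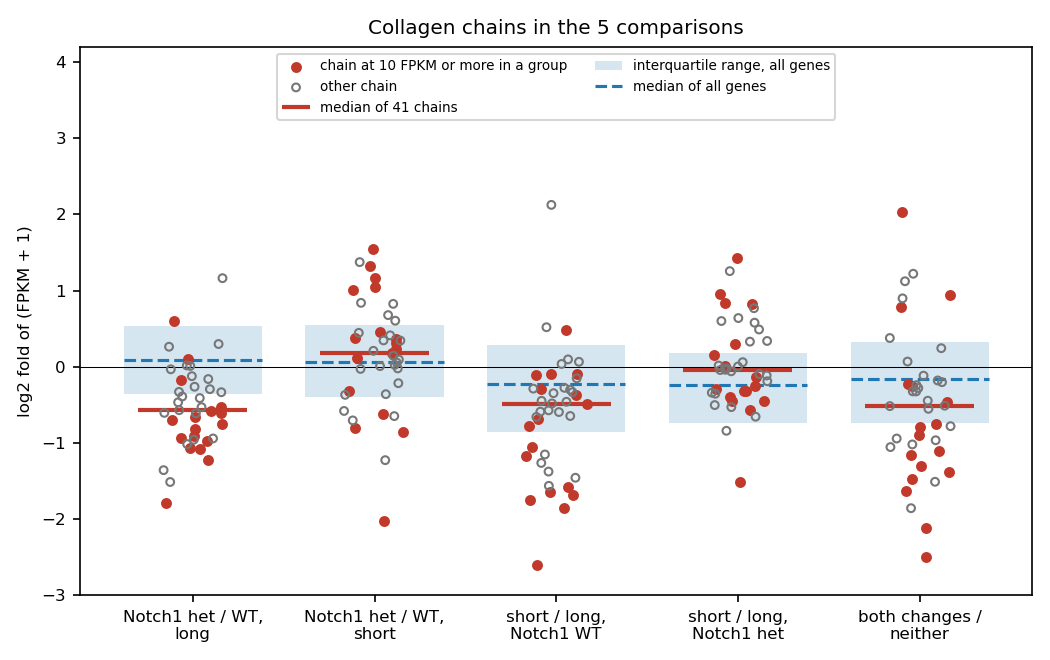
Log2 fold of FPKM + 1 (y axis) of each of the 41 collagen chains in the 5 comparisons (x axis, as labelled), filled for the 17 chains at 10 FPKM or more in a group, with the collagen median (red line) and the median and interquartile range of all 18073 genes (blue). The collagen median lies below that of all genes in the 1st, 3rd and 5th comparison and above it in the 2nd and 4th.

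By summed FPKM, collagen genes and the fibroblast marker list had different highest and lowest groups. The 8 markers of valve interstitial cells and fibroblasts summed to 5479.5, 4778, 7969.8 and 5829 FPKM. This sum was highest in the short-telomere group labelled wild type, where the collagen sum was lowest. Dcn was its largest part, with 4698 FPKM in that group. The mean log2(FPKM + 1) of the 8 markers was 8.10, 7.65, 7.91 and 7.87. By this measure long-telomere wild type was the highest group, as for the collagen sum. In the telomere comparison of wild type valves, 16 of the 17 chains at 10 FPKM or more were lower, while the markers were split, with 4 of 8 lower. In the Notch1 comparison with long telomeres both were mostly lower (15 of 17 chains and 7 of 8 markers), as they were for both changes against neither (14 of 17 and 6 of 8). Lum, the proteoglycan lumican of collagen-rich tissue, stood at 443, 402, 635 and 573 FPKM. Pdgfra, Dcn, Lum and Dpt were highest in the short-telomere group labelled wild type, where Col1a1 was lowest. In the deposited FPKM, the other markers of the list (Vim, Postn, Fbln1 and Tcf21) were highest in long-telomere wild type, as was Col1a1. Vim, at 1339, 1229, 1314 and 1234 FPKM, differed little between groups, and its highest group changed with the median and upper quartile scalings. Tcf21, a factor of epicardium-derived fibroblasts, stood at 26.2, 12.3, 1.01 and 20.1 FPKM, with the same highest and lowest groups as Col1a1. It was the only marker of its list with calls, in the telomere comparison of wild type valves and the Notch1 comparison with short telomeres. Smooth muscle markers summed to 1199, 207, 583 and 407 FPKM, mesothelial markers to 52.8, 14.6, 25.4 and 9.66 FPKM and chondrocyte-associated markers (5 of 8 measured) to 345, 171, 189 and 321 FPKM. Each sum was highest in long-telomere wild type in the deposited FPKM, as was the collagen sum. The chondrocyte-associated sum was highest in the group labelled for both changes when groups were scaled to the same median or upper quartile. Its largest part, Chad, stood at 159, 57.2, 59.6 and 167 FPKM. Endothelial markers, whose cells lay down collagen IV, summed to 294, 243, 413 and 476 FPKM. Macrophage markers summed to 777, 1180.2, 1171 and 2297 FPKM and cardiomyocyte markers to 3226, 4539, 3842 and 5705 FPKM. Each sum was highest in the short-telomere group labelled heterozygous, as were Col4a1, Col4a2 and Col8a1. By mean log2(FPKM + 1), endothelial markers were highest in the short-telomere group labelled wild type (5.48). The short-telomere group labelled heterozygous stood at 5.43. In the deposited FPKM, Col4a1 and Col4a2 were lowest in the short-telomere group labelled wild type, where the endothelial sum was above those of both long-telomere groups. Neither chain was lowest there when the groups were scaled to the same median or upper quartile. None of the markers of these lists was listed at 0 in any group, and their part in the collagen values was not tested.

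**Figure D5:**
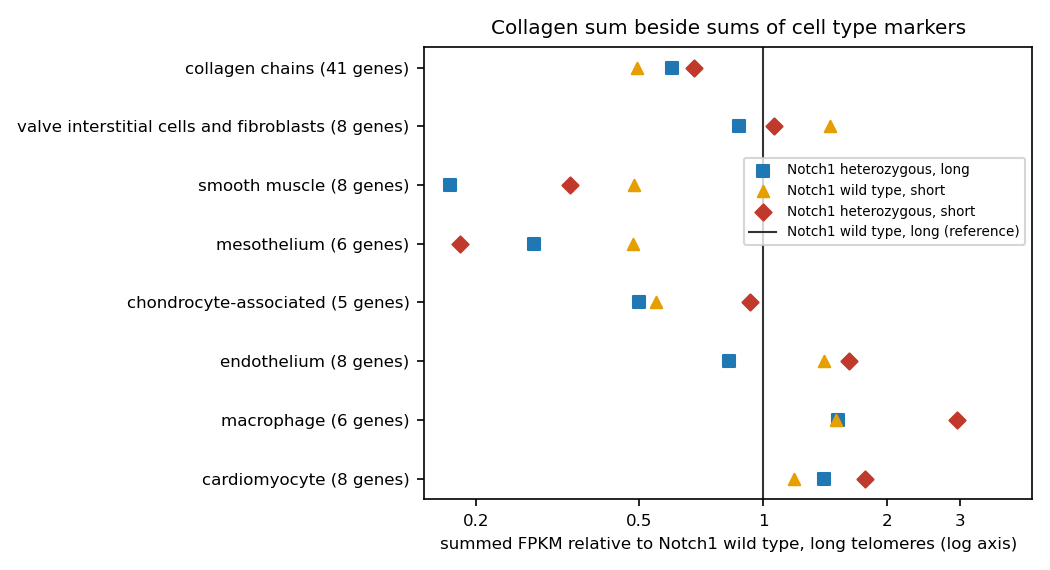
Summed FPKM of the 41 collagen chains and of 7 cell type marker lists (rows) in 3 groups, relative to long-telomere wild type (vertical line at 1; x axis, log), groups as labelled. The collagen sums lie left of the line in all 3 groups, as do those of smooth muscle, mesothelium and chondrocyte-associated genes, whereas fibroblast markers lie on both sides. The chondrocyte-associated sum lies close to the line, at 0.93, in the short-telomere heterozygous group.

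Genes that modify, fold, process, cross-link and bind collagen were described as a list of 43, of which 41 were measured; the share of all genes lower in each comparison is given beside its counts. With long telomeres 35 were lower and 6 higher in heterozygous valves, with a median log2 fold of -0.56 (43.6% of all genes lower). With short telomeres 20 were lower and 21 higher, with a median of 0.08 (42.6%). Short telomeres went with 32 lower and 9 higher in wild type valves, with a median of -0.49 (61.1%), and with 18 lower and 23 higher in heterozygous valves, with a median of 0.06 (64.9%). In the group labelled for both changes 27 were lower and 14 higher, with a median of -0.18 (58.2%). Calls of the authors' deposited table covered 2 of the 41, Itga2 and Gp6, both lower in the Notch1 comparison with long telomeres (0.415% of all genes called) and in that of both changes with neither (0.526%).

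Among the enzymes that hydroxylate prolines, P4hb, the shared subunit of prolyl 4-hydroxylase, stood at 104, 92.3, 142 and 107 FPKM and its catalytic partner P4ha1 at 14.5, 14.1, 6.30 and 14.9 FPKM. The 3-hydroxylase Leprel1 stood at 37.4, 21.8, 68.6 and 41.8 FPKM and the folding isomerase Ppib at 82.6, 95.0, 101 and 72.7 FPKM. P4hb, Leprel1 and Ppib were highest in the short-telomere group labelled wild type, where P4ha1 was lowest. The lysyl hydroxylases Plod2 and Plod3 stood at 26.2, 19.4, 24.9 and 43.9 FPKM and at 20.4, 16.5, 7.86 and 22.0 FPKM, and the collagen galactosyltransferase Glt25d1 at 30.7, 23.8, 19.3 and 29.1 FPKM. Serpinh1, the collagen chaperone Hsp47, stood at 119, 84.6, 65.9 and 96.3 FPKM, Fkbp10, a chaperone of procollagen, at 27.9, 17.6, 9.45 and 15.1 FPKM and Mia3, which exports procollagen from the endoplasmic reticulum, at 21.2, 25.3, 17.1 and 18.1 FPKM. Serpinh1 and Fkbp10 had their highest value in long-telomere wild type and their lowest in the short-telomere group labelled wild type, the same order at both ends as Col1a1.

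Bmp1, which removes the C-terminal propeptides, stood at 36.8, 16.8, 16.7 and 15.3 FPKM, and its enhancer Pcolce at 41.5, 27.8, 29.3 and 27.6 FPKM. Both were above the other 3 groups in long-telomere wild type. The cross-linking oxidases Loxl2 and Loxl1 stood at 60.3, 35.6, 55.9 and 38.4 FPKM and at 44.2, 20.9, 29.9 and 19.6 FPKM, lower in each heterozygous group than in the wild type group of the same telomere length. Lox, the founding lysyl oxidase, stood at 7.98, 2.03, 4.45 and 19.4 FPKM and Loxl3 at 11.7, 7.49, 14.2 and 18.5 FPKM. Both were highest in the group labelled for both changes, as were Col4a1, Col4a2 and Col8a1. Mrc2, which takes up collagen fragments, stood at 37.1, 14.2, 17.8 and 8.29 FPKM, and Itgb1, the common beta subunit of the collagen integrins, at 133, 127, 151 and 179.7 FPKM. Gp6 and Itga2, the collagen receptors of platelets, stood at 45.7, 0.540, 23.0 and 1.24 FPKM and at 12.2, 1.14, 13.2 and 1.05 FPKM, low in both heterozygous groups. Platelet markers summed to 3064, 121, 1928 and 398 FPKM, low in the same groups, and their part in these values was not tested.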

How the data were processed

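The authors deposited FPKM values, with 1 column for each group, per the file headers, beside 5 columns of 0 or 1 read here as their calls. A pair of call columns share a header, and each was tied to the comparison in which every called gene differed by at least 4-fold. The shared header names the Notch1 comparison with short telomeres, and no header names that with long telomeres. The first column of the pair was tied to the latter, so the calls given for it rest on the folds and not on a header. The submitters' processing notes name FastQC, TopHat, SAMtools, Picard and build mm9, without roles. The step that made the FPKM values is not given in the sources used here. Per the labels' protocols, cDNA was amplified linearly from random and oligo-dT primers without keeping strand and read as 100 bp pairs, 4 libraries to a lane. Amplification adds noise to low values.

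Log2 folds were computed as log2(FPKM + 1), with Python 3.11.15 and pandas 2.3.3, over all 18073 genes and no test across mice was possible from 1 value per group. The code was tested on simulated data. Chains were named where a group reached 10 FPKM or a log2 fold reached 2 in size, and 6 others after their values were seen; collagen biosynthesis genes were named where called, where they had the 2 largest log2 folds of a comparison, or as the 2 highest of a role. The name rule that defines the members uses no value, but it and the lists were proposed with earlier results of these data known. GC content came from GENCODE M21 transcripts of build GRCm38, in 20 bins of genes. RefSeq was used for promoters and neighbours. The alternatives were a pseudocount of 0.1, a minimum of 1 FPKM in a group, a mean of at least 10 FPKM, 3 scalings and, chosen after seeing the data, folds relative to genes of like GC content. A few genes are not measured under their listed symbols.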

Additional observations from a re-analysis of the deposited data

How the results depend on the processing

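No paired analysis was possible because the deposited values are 1 per group and carry no replicate numbers, and for the same reason no library could be left out. The counts of chains past 2-fold in this section come without the share of all genes past 2-fold under the same setting. They cannot be set against the shares given above. A pseudocount of 0.1 also moved the median of all genes, from -0.23 to -0.34 for telomeres in wild type valves. Folds relative to genes of like GC content cover 40 of the 41 chains. They are centred on the median of those genes, unlike the folds of the main setting. With a pseudocount of 0.1, in place of 1, more chains passed 2-fold: 14 lower for Notch1 with long telomeres, 5 lower and 10 higher with short, 20 lower for telomeres in wild type valves, 6 lower and 7 higher in heterozygous valves, and 22 lower for both changes against neither, where the median was -1.13. Among the 13 chains with a mean of at least 10 FPKM, 2 were lower and 0 higher for Notch1 with long telomeres, 0 lower with short, 6 lower and 0 higher for telomeres in wild type valves, 0 lower and 1 higher in heterozygous valves, and 6 lower and 1 higher for both changes.

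Scaling to the same median and to the same upper quartile gave 12 and 11 chains at least 2-fold lower for Notch1 with long telomeres. For telomeres in heterozygous valves these scalings turned the median to 0.13 and 0.0902, with 5 chains at least 2-fold higher under each, and median scaling gave 5 higher for both changes. Relative to genes of like GC content, 1 chain was lower for Notch1 with short telomeres, 8 lower and 0 higher for telomeres in wild type valves, 6 higher in heterozygous valves and 6 higher for both changes. In heterozygous valves the median was 0.15 on this measure, beside 0.20 relative to the median of all genes without regard to GC content. The medians of the other 4 comparisons kept their sign under all 7 alternatives. The depth behind the values is unknown, so it cannot be said which low chains were measured well.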

Other observations

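Chains whose genes lie side by side did not share 1 pattern. Col3a1 and Col5a2, neighbours within 100 kb in RefSeq, had the same highest and lowest groups in the deposited FPKM. Their lowest groups differed when the groups were scaled to the same median or upper quartile. Col3a1 over Col5a2 was 3.05, 3.21, 4.22 and 3.96 in long-telomere wild type, long-telomere heterozygous, and the short-telomere groups labelled wild type and heterozygous. Col4a3 and Col4a4, which overlap in RefSeq, were at a ratio of 1.38, 1.57, 1.20 and 4.12, and Col4a5 and Col4a6 at 0.983, 1.87, 1.78 and 1.45. Col8a1 over Col1a1, which sets a chain of vascular wall cells against the main fibril chain, was 0.0621, 0.182, 0.288 and 0.672. These ratios were picked after their values were seen and are given as values.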
